A study of Mus musculus with 3 samples.

Results

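Neurons carry a set of RNA-binding proteins that decide which exons enter an mRNA. Of their genes, 10 were followed here in SST+ neurons of the mouse neocortex (NCx): Rbfox1, Rbfox2, Rbfox3, Nova1, Nova2, Ptbp2, Srrm4, Elavl4, Celf4 and Khdrbs2. They were picked by name from the 31053 genes of the count matrices, with earlier results of these data known. All 10 were detected in the libraries of all 3 stages, and all 10 passed the filter on low values (a mean of at least 10 CPM over the groups compared, where CPM are the UMIs of a gene scaled to the total of its cells) in every comparison below.

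Cells were sorted as GFP+ and viable from the NCx of mice that carry Sst-Cre and the RCEloxP reporter, at embryonic day (E) 16.5 and postnatal days (P) 1 and 5. The Cre is driven from the Sst gene and the reporter stays on afterwards, so GFP marks cells with past as well as present Sst expression. Every group below carries both alleles, and no other genotype or treatment was compared. Each stage is 1 library of single-cell 3′ UMI counts from pooled animals (6, 3 and 3 in order of age), so that stage and library cannot be told apart and no test was made. A UMI (unique molecular identifier) marks 1 captured mRNA molecule, and the counts give the level of a gene but not which exons its mRNA holds.

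RBFOX, NOVA, PTBP2, SRRM4, ELAVL4, CELF4 and KHDRBS2 (also called SLM1) each bind short sequence elements in pre-mRNA and raise or lower the use of the exons nearby, and several also act on mRNA stability or translation in the cytoplasm. As neurons mature, their expression changes in sequence and switches synaptic and cytoskeletal genes to neuronal or adult isoforms. Splicing of neurexin mRNAs by KHDRBS proteins and of microexons by SRRM4 are well-known examples, and interneuron types are known to differ in such programs.

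Cells with over 700 genes and under 10% mitochondrial UMIs were kept, which left 3952 of 4478, 2501 of 4440 and 2980 of 3406 cells of the E16.5, P1 and P5 libraries. Their median depth was 5577, 3293 and 3935.5 UMIs, with a median mitochondrial share of 4.05%, 5.92% and 4.21%. Cells with at least 1 UMI of Nos1, the neuronal nitric oxide synthase that marks long-range projection (LRP) neurons, numbered 67, 434 and 547. Cells with Lhx6, the transcription factor of interneurons from the medial ganglionic eminence, and no Nos1 UMI numbered 3269, 1606 and 1874, and are called Lhx6+ Nos1- cells. Any 2 libraries shared between 1 and 6 cell barcodes, at most 2 of them among kept cells.

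The labels held for the Lhx6+ Nos1- cells, in which all 5 GABAergic markers were detected in every library and the 6 excitatory markers summed to between 2.81 and 9.49 CPM. Npy and Chodl, which mark LRP neurons, were far higher in Nos1+ cells, with Chodl at 42.1, 284 and 399 CPM against 7.21, 12.1 and 7.13 CPM. However, the Nos1+ cells at E16.5 also held excitatory markers, which summed to 581 CPM there and to 154 and 6.11 CPM in the P1 and P5 libraries. Slc17a7, Neurod2 and Neurod6 were among the 5 of 6 such markers with a UMI at E16.5. Of the Nos1+ cells, 14 of 67, 17 of 434 and 3 of 547 held at least 2 excitatory marker UMIs. Glial, microglial, endothelial and erythroid lists each summed to under 4 CPM in both kinds of cells in every library, with the endothelial list highest at 3.55 CPM in Nos1+ cells at P1. Levels of these members at E16.5 are therefore also given without these 14 cells where the log2 ratio moved by more than 0.1.

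Srrm4 and Khdrbs2 differed most between the kinds of cells, in opposite directions at P1 and P5, and their promoters are shown here as the start sites of these members. Sequences come from RefSeq on build GRCm38.p6, in which 8 of the 10 members matched by symbol. Each run holds 300 bases on the gene's strand, 250 before and 50 after the listed start, with CG dinucleotides in capitals. Khdrbs2 lies on the + strand, at chr1:32172472-32172771, and Srrm4 on the - strand, at chr5:116591768-116592067.
Khdrbs2: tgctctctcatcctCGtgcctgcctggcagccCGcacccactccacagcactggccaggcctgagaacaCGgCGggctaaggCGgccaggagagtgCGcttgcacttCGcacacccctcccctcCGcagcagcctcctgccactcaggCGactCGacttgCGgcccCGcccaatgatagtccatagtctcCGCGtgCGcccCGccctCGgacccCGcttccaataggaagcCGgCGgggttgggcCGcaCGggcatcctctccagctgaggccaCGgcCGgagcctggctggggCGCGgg
Srrm4: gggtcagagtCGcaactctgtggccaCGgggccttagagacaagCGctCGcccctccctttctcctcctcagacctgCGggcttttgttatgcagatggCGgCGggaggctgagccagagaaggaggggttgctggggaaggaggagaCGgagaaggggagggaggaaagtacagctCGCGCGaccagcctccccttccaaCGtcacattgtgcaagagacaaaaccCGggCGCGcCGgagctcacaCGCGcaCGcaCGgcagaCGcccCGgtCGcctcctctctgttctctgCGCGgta
Both are rich in CG, with 26 such dinucleotides for Khdrbs2 and 25 for Srrm4 against a median of 7 over all 32851 listed promoters. Neither window holds the POU octamer ATGCAAAT or the homeodomain core TAATTA on either strand, which 1.74% and 5.29% of all promoters hold, and neither motif holds the other. A window without these letters says nothing on binding elsewhere.

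**Figure D1:**
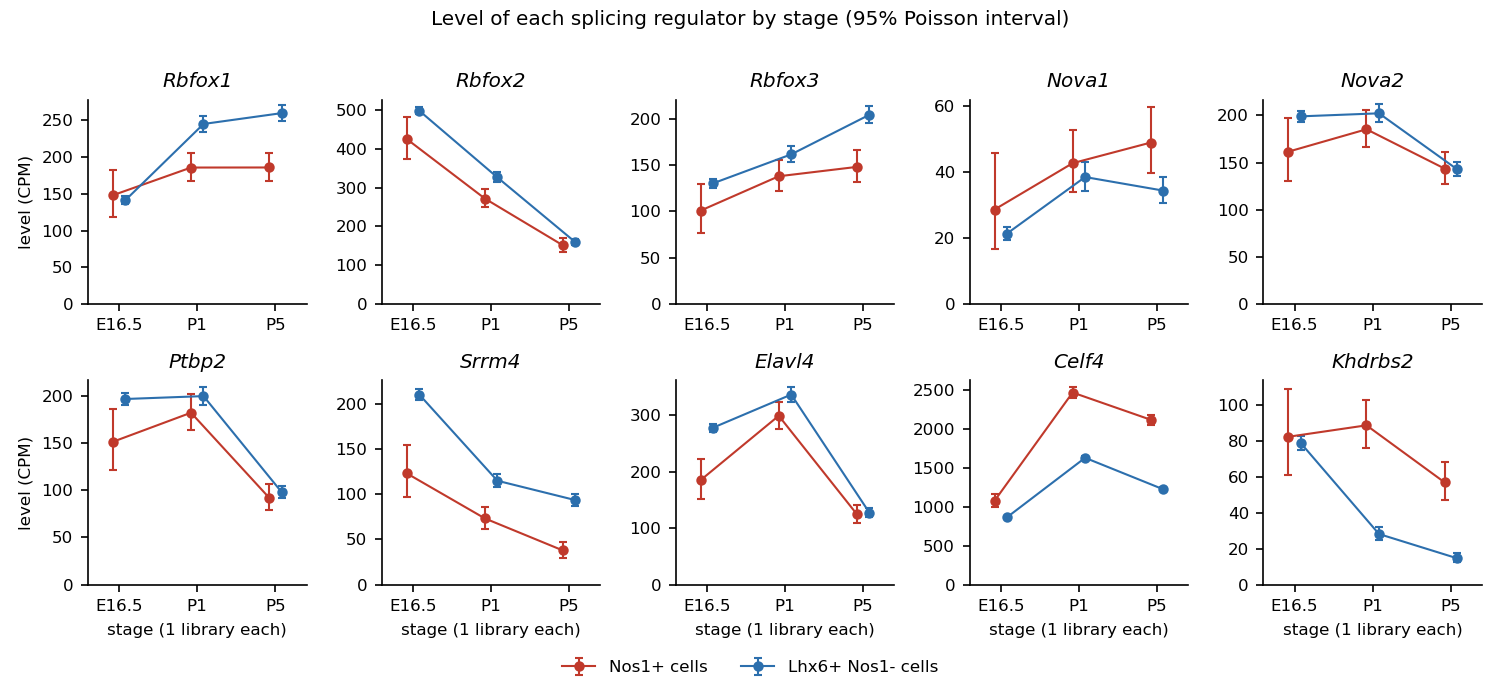
Level of each of the 10 splicing regulators (vertical axis, CPM) at E16.5, P1 and P5 (horizontal axis), in Nos1+ cells (red) and Lhx6+ Nos1- cells (blue), 1 library per stage, with exact 95% Poisson intervals. Khdrbs2 separates the kinds of cells at P1 and P5 and Celf4 and Srrm4 do so at every stage, while Rbfox2, Ptbp2 and Elavl4 lie lower at P5 than at P1 in both.

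The first question was whether Nos1+ cells carry other levels of these regulators than the Lhx6+ Nos1- cells of their library. At P1 and P5, Khdrbs2 and Celf4 were at least 1.5-fold higher and Srrm4 at least 1.5-fold lower in Nos1+ cells, and the other 7 members stayed within 1.5-fold. Thus, 2 of 10 members were higher at P1 (5.24% of all 9252 genes tested) and 2 of 10 at P5 (6.17% of 8880), and 1 of 10 was lower at P1 (5.54%) and at P5 (9.86%). At E16.5, 0 of 10 were higher (9.65% of 8827 genes) and 1 of 10, again Srrm4, was lower (9.31%). That E16.5 count became 4 without the 14 cells with excitatory markers, and also with Lhx6 required, with Nova1 and Celf4 higher and Srrm4 and Khdrbs2 lower. Counts this small describe the members and say nothing of the whole set. All intervals are 95% and cover counting error only.

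Khdrbs2, an SAM68-like protein of the STAR family that acts on neurexin exons, lies on chromosome 1 at 32172714 to 32658568 (GRCm38, + strand). Its level in Nos1+ cells was 82.5 CPM at E16.5 (interval 61.0 to 109), 88.9 CPM at P1 (76.2 to 103) and 57.0 CPM at P5 (47.0 to 68.6). In Lhx6+ Nos1- cells it was 78.8 CPM (75.1 to 82.7), 28.2 CPM (24.7 to 32.1) and 14.7 CPM (12.3 to 17.4). The groups therefore overlapped at E16.5 and were apart at P1 and P5, with Lhx6+ Nos1- cells lower in each later library. The Nos1+ level at E16.5 included the cells with excitatory markers, which are taken up below. The log2 ratio of Nos1+ over Lhx6+ Nos1- cells, taken with 1 CPM added, was 0.06 (-0.38 to 0.47) at E16.5, 1.62 (1.36 to 1.95) at P1 and 1.89 (1.58 to 2.33) at P5, the last a 3.70-fold difference.

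The E16.5 value of Khdrbs2 depended on the excitatory cells. In the 14 Nos1+ cells with excitatory markers it was 179 CPM (123 to 251), and in the other 53 it was 39.0 CPM (22.3 to 63.4), from 16 UMIs. The 53 cells thus lay below the Lhx6+ Nos1- level, at a log2 ratio of -0.996, the opposite side from P1 and P5. At P1 and P5, leaving such cells out gave 93.3 and 56.8 CPM and log2 ratios of 1.69 and 1.88. A split by depth of the Nos1 signal went the same way at both postnatal stages: cells with 1 Nos1 UMI held 46.7 and 31.9 CPM of Khdrbs2, and cells with 2 or more held 109 and 61.8 CPM. Their intervals were apart at P1 but not at P5, where the first group held 10 Khdrbs2 UMIs.

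Celf4, a CELF family protein that binds mRNAs of synaptic genes and limits neuronal excitability, differed in every library. Nos1+ cells held 1077 CPM at E16.5 (995 to 1164), 2468 CPM at P1 (2399 to 2538) and 2118 CPM at P5 (2055 to 2184). Lhx6+ Nos1- cells held 865 CPM (853 to 878), 1629 CPM (1601 to 1657) and 1225 CPM (1202 to 1248). The intervals of the kinds of cells did not overlap in any library. The log2 ratio was 0.32 (0.20 to 0.43), 0.60 (0.55 to 0.65) and 0.79 (0.74 to 0.84), so that the P1 value lay just past 1.5-fold, or 0.58 on this scale, with its interval reaching below. Without the excitatory cells the E16.5 level was 1381 CPM, at a log2 ratio of 0.67. Cells with 2 or more Nos1 UMIs held more Celf4 than those with 1, at 1445 against 770 CPM at E16.5, 2737 against 1912 CPM at P1 and 2272 against 1312 CPM at P5. The E16.5 split includes the 14 cells with excitatory markers, which held 401 CPM of Celf4, and was not repeated without them. Celf4 is on the study's list of genes that mark LRP neurons, which was drawn from these cells, so its direction here is not independent evidence.

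Srrm4, the activator of neuronal microexons, lies on chromosome 5 at 116439275 to 116591817 (- strand). Nos1+ cells held 123 CPM at E16.5 (96.3 to 155), 73.1 CPM at P1 (61.7 to 86.1) and 37.7 CPM at P5 (29.6 to 47.3). Lhx6+ Nos1- cells held 210 CPM (204 to 216), 115 CPM (107 to 122) and 93.3 CPM (87.2 to 99.7). Srrm4 was thus lower in Nos1+ cells in each library, with intervals apart. It was lower at each later stage in Lhx6+ Nos1- cells, and lower at P5 than at P1 in Nos1+ cells. Without cells with excitatory markers, Nos1+ cells held 85.4 CPM (59.5 to 119) at E16.5 and 70.5 CPM (58.8 to 83.9) at P1, with overlapping intervals. The log2 ratio was -0.77 (-1.13 to -0.44), -0.64 (-0.91 to -0.40) and -1.29 (-1.67 to -0.96), a 2.44-fold difference at P5. It was -1.29 at E16.5 without the excitatory cells, which held 206 CPM. Over the alternative settings it ran from -1.49 to -0.72 at E16.5 and from -1.62 to -0.58 at P1. An antisense gene, Srrm4os, overlaps its exons, was counted apart by strand and held 121 UMIs in all kept cells.

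**Figure D2:**
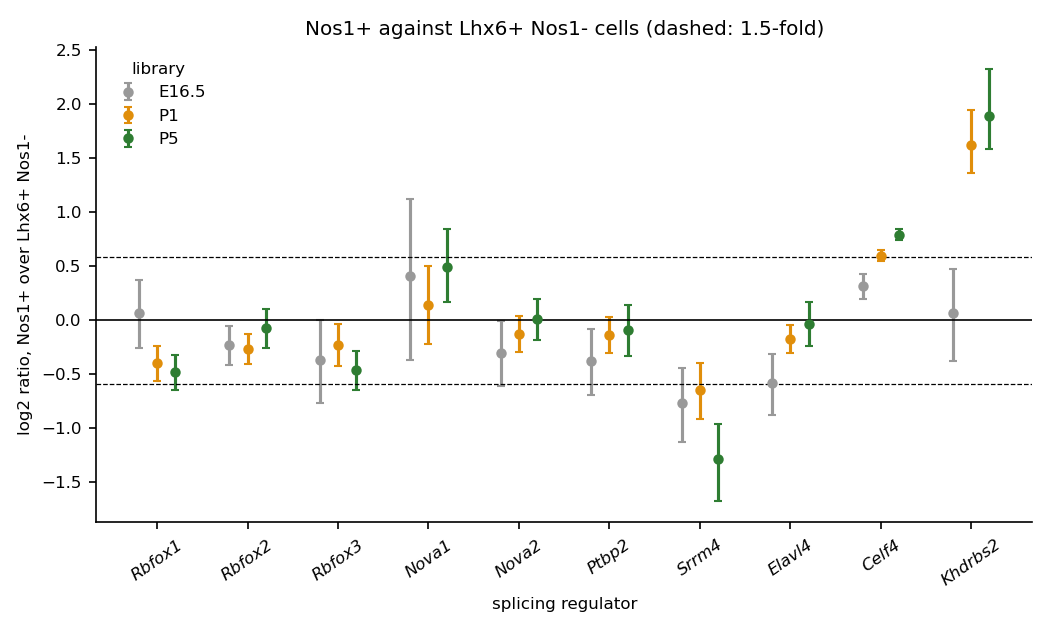
Log2 ratio of Nos1+ over Lhx6+ Nos1- cells (vertical axis, 1 CPM added to each level) for each of the 10 members (horizontal axis) in the E16.5, P1 and P5 libraries, with 95% counting intervals and dashed lines at 1.5-fold. Khdrbs2 stands at 1.62 and 1.89 at P1 and P5 and Srrm4 at -1.29 at P5, while 7 members lie within the lines at both P1 and P5.

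The RBFOX proteins bind GCATG in introns, and Rbfox3 encodes the neuronal marker NeuN. Rbfox1 (chromosome 16, 5885355 to 7411526, + strand) was level between the groups at E16.5, at 148 CPM in Nos1+ cells (119 to 182) and 141 CPM in Lhx6+ Nos1- cells (136 to 147), and the ratio moved from 0.07 to 0.21 without the excitatory cells. It was lower in Nos1+ cells at P1, at 186 CPM (167 to 206) against 245 CPM (234 to 256), and at P5, at 186 CPM (167 to 206) against 260 CPM (250 to 271). The intervals were apart at both stages, with log2 ratios of -0.40 and -0.48, within 1.5-fold. Rbfox1 passed 1.5-fold at P1 under a stricter filter on cells or with 2 Nos1 UMIs needed. It did so at P5 with thinned cells or the mean of per-cell CPM. Over the alternative settings the ratio reached -0.70 at P1 and -0.63 at P5.

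Rbfox3 (chromosome 11, 118489762 to 118911597, - strand) was 101, 138 and 148 CPM in Nos1+ cells and 131, 162 and 205 CPM in Lhx6+ Nos1- cells. It was lower in Nos1+ cells in all 3 libraries, with intervals of 132 to 166 CPM and 195 to 214 CPM apart at P5, at a log2 ratio of -0.46 (-0.65 to -0.29). Its E16.5 ratio was -0.37, or -0.25 without the excitatory cells. Rbfox2 (chromosome 15, 77078990 to 77307004, - strand) was 426, 272 and 151 CPM against 499, 327 and 159 CPM. It was lower in Nos1+ cells at E16.5 and P1, with level intervals apart. The log2 ratios there were -0.23 (-0.41 to -0.05) and -0.26 (-0.40 to -0.13). The kinds of cells were closest at P5, where the ratio was -0.07 (-0.26 to 0.11).

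The NOVA proteins bind YCAY clusters and act on synaptic exons. Nova1 (chromosome 12, 46694517 to 46818929, - strand) was 28.6, 42.6 and 48.9 CPM in Nos1+ cells and 21.3, 38.5 and 34.3 CPM in Lhx6+ Nos1- cells. Its log2 ratio was above 0 in all 3 libraries, at 0.41, 0.15 and 0.50, with an interval clear of 0 at P5 alone (0.16 to 0.84). Leaving out the excitatory cells moved the E16.5 ratio to 0.84, on 16 UMIs. Nova1 was also past 1.5-fold at P1 under a stricter filter on cells, and at P5 with thinned cells or the mean of per-cell CPM. Nova2 (chromosome 7, 18925888 to 18965319, + strand) was 162, 185 and 144 CPM against 199, 202 and 143 CPM, and its P5 ratio was 0.01 (-0.18 to 0.19). At E16.5 the ratio was -0.30, or -0.08 without the excitatory cells. The antisense gene Gm26821 overlaps Nova2 and held 928 UMIs of its own. Another gene, Gm33869, overlaps exons of Nova1 on the same strand and is not among the counted genes. Its part in the Nova1 counts was not tested.

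Ptbp2, the neuronal polypyrimidine tract protein that replaces PTBP1 in new neurons and delays adult splicing, lies on chromosome 3 at 119718742 to 119784466 (- strand). Its levels were 151, 182 and 92.2 CPM in Nos1+ cells and 197, 200 and 98.2 CPM in Lhx6+ Nos1- cells, at a P5 ratio of -0.09 (-0.33 to 0.14). At E16.5 the level intervals were apart, at a ratio of -0.38 (-0.70 to -0.08). Elavl4 encodes HuD, which stabilises AU-rich mRNAs of growing neurites, and lies on chromosome 4 at 110203722 to 110351909 (- strand). It was 185 CPM (152 to 223) in Nos1+ cells and 278 CPM (271 to 285) in Lhx6+ Nos1- cells at E16.5, a log2 ratio of -0.58 just inside the threshold, or -0.39 without the excitatory cells. By P5 it was 125 and 128 CPM, at a ratio of -0.03. Both genes therefore ended at like levels in the kinds of cells.

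The share of cells with a UMI moves with depth, so cells were also thinned to 2000 UMIs each, which left out 2, 78 and 133 Nos1+ cells and 169, 291 and 201 Lhx6+ Nos1- cells. Khdrbs2 was then found in 10.8%, 15.7% and 10.1% of Nos1+ cells and in 15.3%, 6.16% and 2.93% of Lhx6+ Nos1- cells. The Clopper-Pearson intervals were 12.1% to 19.9% against 4.92% to 7.60% at P1 and 7.41% to 13.5% against 2.17% to 3.85% at P5, apart in both. Unthinned, the shares were 35.8%, 26.3% and 17.2% against 32.9%, 11.4% and 6.35%. Srrm4 was found in 20.0%, 9.83% and 4.83% of thinned Nos1+ cells and in 35.3%, 20.7% and 16.1% of Lhx6+ Nos1- cells, with unthinned shares of 40.3%, 21.2% and 10.6% against 65.7%, 36.0% and 29.1%. Rbfox1 was found in 27.1% (22.8% to 31.6%) against 40.2% (37.8% to 42.6%) at P5, and in 41.5% against 64.1% unthinned. Celf4 was found in 97.1% of thinned Nos1+ and 87.2% of thinned Lhx6+ Nos1- cells at P5. A thinned cell held a median of 3 of the 10 members with a UMI in both kinds of cells in every library. No cell type lacking all of these genes was large enough to give the level of free RNA, since the libraries held 0, 5 and 7 non-neuronal cells.

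**Figure D3:**
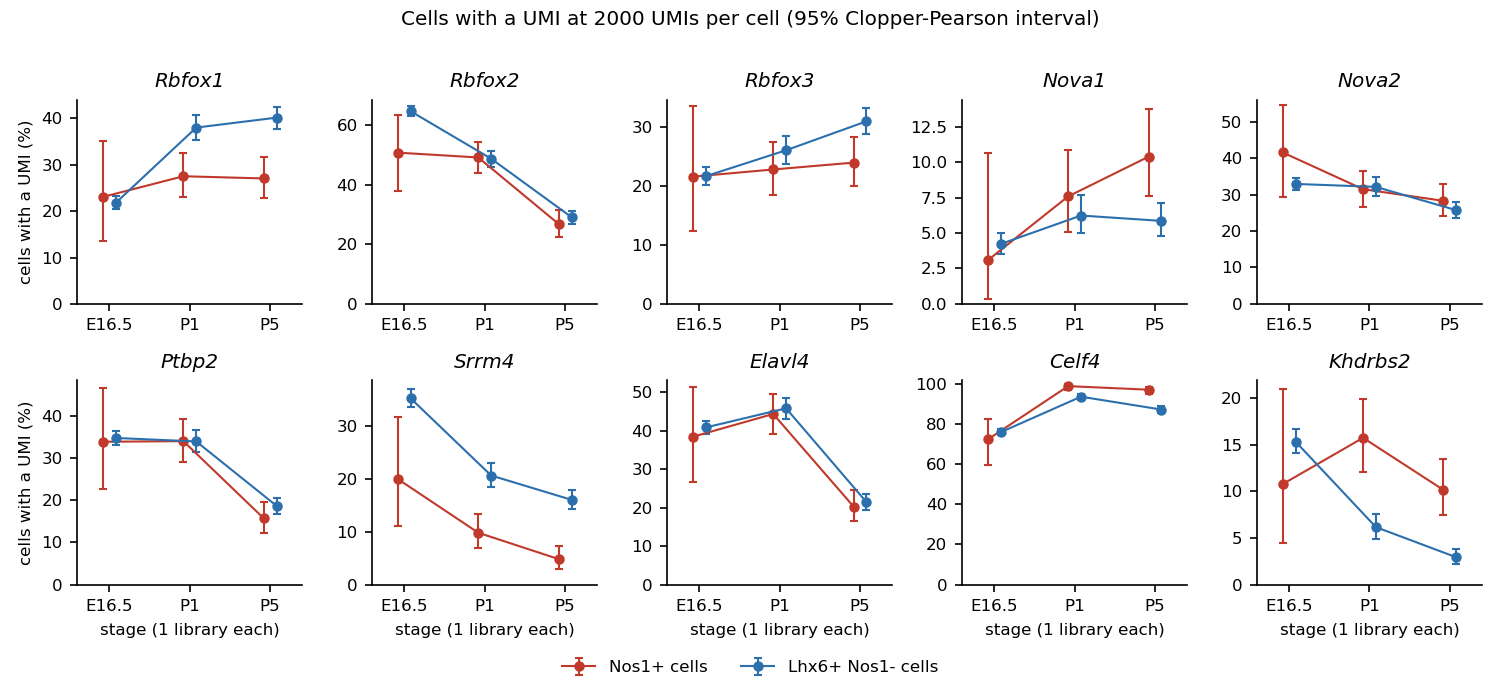
Share of cells with at least 1 UMI of each member (vertical axis, %) after thinning to 2000 UMIs per cell, at E16.5, P1 and P5 (horizontal axis), in Nos1+ cells (red) and Lhx6+ Nos1- cells (blue), with exact 95% Clopper-Pearson intervals. At P5 the shares are 10.1% against 2.93% for Khdrbs2 and 4.83% against 16.1% for Srrm4.

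The second question was how the regulators vary among subtypes. Cells were split by markers that are not members: Nos1+ cells by Dach1 and Lypd1, which mark different LRP neurons, and Lhx6+ Nos1- cells by Nr2f2 and Tac1, taken here as markers of Martinotti cells (MCs) and non-Martinotti cells (nMCs). A cell with UMIs of both markers of a pair, or of neither, was left out of these groups. That left out 44 of 67, 281 of 434 and 299 of 547 Nos1+ cells in order of age. It also left out 2269 of 3269, 1293 of 1606 and 1350 of 1874 Lhx6+ Nos1- cells. Tac1+ cells then numbered 155, 71 and 116, and Nr2f2+ cells 845, 242 and 408. These ratios were added after the levels in the groups had been seen.

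Rbfox1 separated the Nos1+ subtypes. It was 53.8 CPM (34.1 to 80.7) in the 98 Dach1+ cells and 242 CPM (191 to 301) in the 55 Lypd1+ cells at P1, a 4.43-fold difference with intervals apart. At P5, the 27 Dach1+ cells held 0 Rbfox1 UMIs of 98231 UMIs in all, with an exact upper limit of 37.6 CPM, while the 221 Lypd1+ cells held 214 CPM (184 to 248) and 112 of them had a UMI. The Lypd1+ level was 7.02-fold the 30.5 CPM that 3 counts over the Dach1+ group would give, and the interval of the log2 ratio begins at 2.50. At E16.5 the 22 Dach1+ cells held 134 CPM (82.7 to 204), with an interval that takes in the levels of all other groups there, and only 1 Nos1+ cell was Lypd1+. Both groups had Chodl and Npy, with Chodl at 336 CPM in Dach1+ and 529 CPM in Lypd1+ cells at P5. The 6 excitatory markers were at 0 in both at P5, and at P1 they summed to 2.34 CPM in Dach1+ and 155 CPM in Lypd1+ cells, where 1 cell held at least 2 such UMIs and Rbfox1 was 251 CPM without it.

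Khdrbs2 moved the same way, at 130 CPM (93.7 to 176) in Lypd1+ and 58.5 CPM (37.8 to 86.3) in Dach1+ cells at P1, a 2.20-fold difference. At P5 it was 68.3 CPM (51.9 to 88.3) against 20.4 CPM (2.47 to 73.5), where the Dach1+ value rests on 2 UMIs and the intervals overlap. Celf4 was alike, at 2499 and 2654 CPM at P1 and at 2162 and 2209 CPM at P5, with log2 ratios of -0.09 (-0.22 to 0.04) and -0.03 (-0.23 to 0.18). Thus, 3 of 10 members were at least 1.5-fold higher in Lypd1+ cells at P1 (15.5% of all genes) and 2 of 10 at P5 (20.5%), and 1 of 10 was lower at P1 (16.7%) and at P5 (24.4%). Besides Rbfox1 and Khdrbs2, these were Srrm4 (0.91, -0.05 to 1.95) and Nova1 (-0.78, -2.03 to 0.33) at P1 and Elavl4 (-0.62, -1.40 to 0.25) at P5, with log2 ratios whose intervals take in 0. The log2 ratios of Rbfox2, Rbfox3, Nova2 and Ptbp2 ran from -0.31 to 0.47 over both libraries.

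Among Lhx6+ Nos1- cells, Srrm4 separated Tac1+ from Nr2f2+ cells in every library. Tac1+ cells held 270 CPM at E16.5 (239 to 305), 196 CPM at P1 (156 to 244) and 215 CPM at P5 (179 to 255). Nr2f2+ cells held 164 CPM (155 to 175), 67.0 CPM (56.2 to 79.3) and 29.0 CPM (22.8 to 36.5). The Tac1+ level thus overlapped between P1 and both other libraries while the Nr2f2+ level was lower in each later one, and the difference was 1.64-, 2.90- and 7.18-fold. At P5 the level of all Nos1+ cells, 37.7 CPM, overlapped that of Nr2f2+ cells and was far below that of Tac1+ cells. Srrm4 is on the study's list for nMCs, drawn from these cells, so the direction is not independent evidence.

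Celf4 and Khdrbs2 also differed between these groups at P5. Celf4 was 1662 CPM (1559 to 1769) in Tac1+ and 1049 CPM (1009 to 1090) in Nr2f2+ cells, both below the 2118 CPM of Nos1+ cells. Khdrbs2 was 27.2 CPM (15.6 to 44.2) against 8.35 CPM (5.17 to 12.8), from 16 and 21 UMIs. Nova1 went the other way, at 25.5 CPM (14.3 to 42.1) against 46.9 CPM (38.8 to 56.2). Its level intervals overlapped, and the log2 ratio was -0.85 (-1.76 to -0.10). In order of age, 1, 1 and 3 of 10 members were at least 1.5-fold higher in Tac1+ cells (5.83%, 12.2% and 12.6% of all genes), and 0, 0 and 1 were lower (4.74%, 11.7% and 13.4%). The log2 ratios of the other 6 members, the RBFOX genes, Nova2, Ptbp2 and Elavl4, ran from -0.25 to 0.49 over the libraries.

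**Figure D4:**
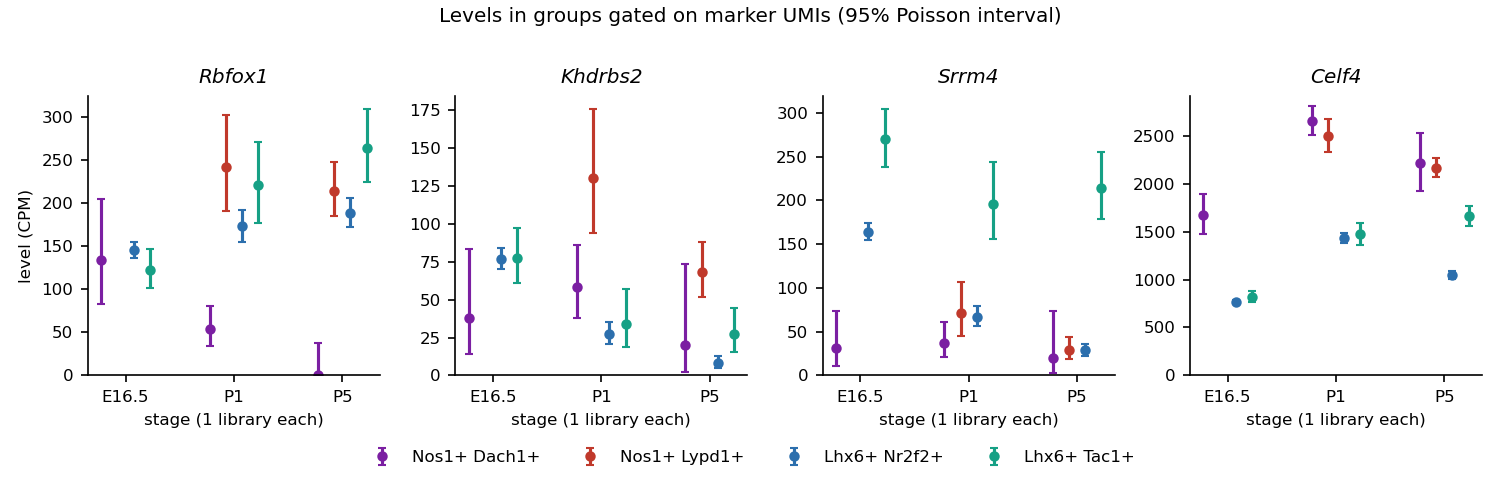
Level (vertical axis, CPM) of Rbfox1, Khdrbs2, Srrm4 and Celf4 at E16.5, P1 and P5 (horizontal axis) in Nos1+ cells with Dach1 (purple) or Lypd1 (red) and in Lhx6+ Nos1- cells with Nr2f2 (blue) or Tac1 (green), with 95% Poisson intervals; groups under 20 cells are left out. Rbfox1 is at 0 in Dach1+ cells at P5, and Srrm4 is 215 CPM in Tac1+ and 29.0 CPM in Nr2f2+ cells.

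The third question was how the levels compare between the stages. In Lhx6+ Nos1- cells, Rbfox1, Rbfox3 and Nova1 were at least 1.5-fold higher in the P5 than in the E16.5 library, and Rbfox2, Ptbp2, Srrm4, Elavl4 and Khdrbs2 at least 1.5-fold lower. That is 3 of 10 higher (27.4% of 9020 genes) and 5 of 10 lower (26.1%), with Celf4 (0.50) and Nova2 (-0.48) within 1.5-fold. The member with the largest difference was Khdrbs2, 5.09-fold lower with a log2 ratio of -2.35 (-2.69 to -2.17), followed by Rbfox2, 3.12-fold lower at -1.64 (-1.73 to -1.57).

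The order of the differences was not the same for all members. Between E16.5 and P1, Rbfox1 (0.79), Nova1 (0.82) and Celf4 (0.91) were higher, 3 of 10 members (22.8%), and Rbfox2 (-0.61), Srrm4 (-0.87) and Khdrbs2 (-1.45) lower, 3 of 10 (12%). Between P1 and P5, 0 of 10 were higher (17.7%) and Rbfox2 (-1.03), Ptbp2 (-1.02), Elavl4 (-1.39) and Khdrbs2 (-0.90) were lower, 4 of 10 (24.6%). Rbfox3 (0.31) and Nova2 (0.02) stayed within 1.5-fold in the first interval, and the other 6 members ran from -0.50 to 0.34 in the second. Ptbp2 and Elavl4 were thus within 1.5-fold of their E16.5 levels at P1, with log2 ratios of 0.02 and 0.27, and lower at P5. Celf4 was highest at P1 in both kinds of cells. The median log2 ratio of all genes was 0.14 between E16.5 and P1 and -0.12 between P1 and P5. Relative to these medians the same members were past 1.5-fold in each direction, while 16.9% of all genes were higher and 17.0% lower at P1 and 21.5% higher and 19.8% lower at P5 against P1.

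In Nos1+ cells, 0 of 10 members were higher at P5 than at P1 (15%) and 5 of 10 lower (27.3%): Rbfox2 (-0.84), Ptbp2 (-0.98), Srrm4 (-0.94), Elavl4 (-1.25) and Khdrbs2 (-0.63). Relative to the median of all genes, -0.17, Khdrbs2 was at -0.46 and no longer past 1.5-fold. Rbfox1 was level, at 186 CPM in both, and Rbfox3, Nova1, Nova2 and Celf4 ran from -0.37 to 0.19. Of the Nos1+ cells, 98 of 434 were Dach1+ and 55 Lypd1+ at P1, against 27 and 221 of 547 at P5. Within Lypd1+ cells, Rbfox1 was 242 and 214 CPM and Khdrbs2 130 and 68.3 CPM at P1 and P5. Within Dach1+ cells, Rbfox1 was 53.8 and 0 CPM and Khdrbs2 58.5 and 20.4 CPM, the last on 2 UMIs. The part of this make-up in the Nos1+ ratios was not tested. The P1 library also kept a smaller share of its cells, 56.3% against 88.3% and 87.5%, had the highest mitochondrial share and was counted with another release of Cell Ranger. Stage ratios of Lhx6+ Nos1- cells were also taken under stricter limits on genes and mitochondrial UMIs. Between E16.5 and P1, 4 members rather than 6 were then past 1.5-fold, as Rbfox2 and Nova1 were not. Between P1 and P5, 6 rather than 4 were lower, with Srrm4 and Celf4 added. The same 8 were past it between E16.5 and P5. Over all settings the P5 over P1 ratio of Nova1 ran from -0.18 to 0.47. The part of the share kept, the mitochondrial share and the Cell Ranger release was not tested.

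Other RNA-binding proteins of splicing were counted from lists chosen for their class. Between E16.5 and P5 in Lhx6+ Nos1- cells, 17 of 20 hnRNP genes, which package pre-mRNA, were at least 1.5-fold lower and 0 higher, with a median log2 ratio of -1.19. Hnrnph3 (-2.78), Hnrnpa0 (-2.14), Hnrnpf (-2.09) and Hnrnpc (-1.96) were lowest. Of 13 SR protein genes, general activators of exon inclusion, 11 were lower and 0 higher, at a median of -1.10, led by Srsf7 (-1.85), Tra2b (-1.54), Srsf3 (-1.53) and Srsf10 (-1.39). Of all genes tested in this comparison, 27.4% were higher and 26.1% lower, and their median was -0.01. The 10 members had a median of -0.74, with members in both directions.

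Of 13 relatives of the members, 7 were lower, among them Elavl1 (-1.23), Celf3 (-1.19) and Ptbp3 (-1.11), and 1 was higher, Celf6 (1.24). Of 11 other regulated splicing factors, 5 passed the filter, of which Msi1 (-1.52) and Qk (-1.05) were lower and Mbnl2 (1.501), a muscleblind protein of adult splicing, was higher. Of 15 transcripts whose neuronal exons are known targets of these proteins, 10 were higher and 1 lower, at a median of 0.68. Kcnma1 (2.36), Dab1 (2.26) and Grin1 (2.23) led, and the transcript lower at P5 was that of Rest (-2.05), the repressor of neuronal genes whose own mRNA is a target of SRRM4.

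**Figure D5:**
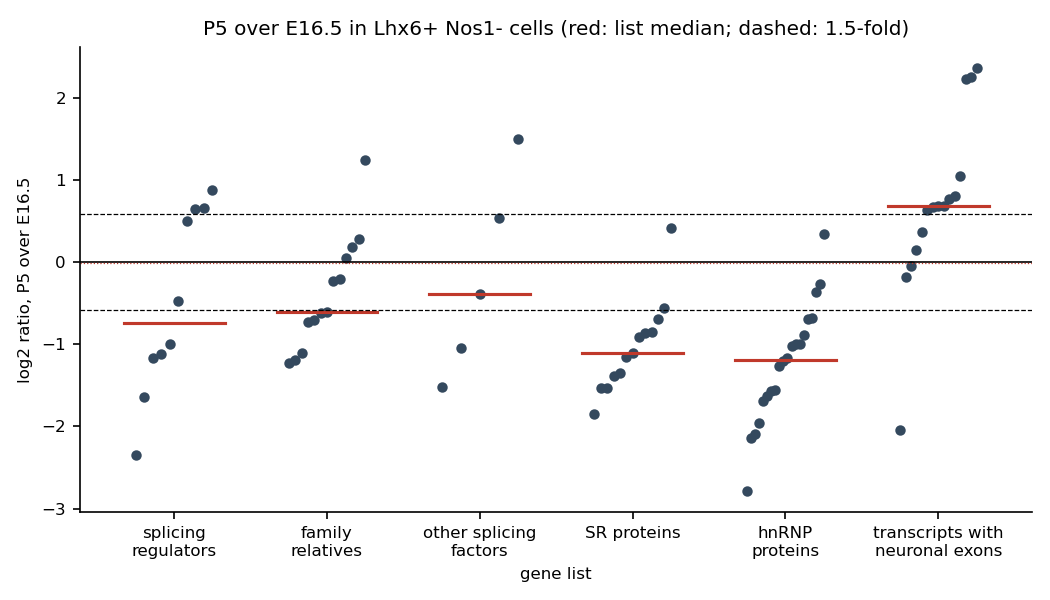
Log2 ratio of P5 over E16.5 in Lhx6+ Nos1- cells (vertical axis) for the genes of each list (horizontal axis, 1 point per gene that passed the filter), with list medians in red, the median of all genes dotted and dashed lines at 1.5-fold. The hnRNP and SR lists have medians of -1.19 and -1.10, and the transcripts with neuronal exons 0.68.

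Among all genes, 9.65%, 5.24% and 6.17% were at least 1.5-fold higher in Nos1+ than in Lhx6+ Nos1- cells in order of age. In turn, 9.31%, 5.54% and 9.86% were lower. Few genes of these lists passed 1.5-fold between the kinds of cells. At E16.5 they were Rbm38 (1.26), Mbnl2 (0.80) and Dab1 (3.67), higher in Nos1+ cells, and Qk (-0.81), Hnrnph2 (-0.81), Rest (-1.10), Nrxn3 (-1.06) and Snap25 (-0.68), lower, with the excitatory cells included. Without them Dab1 was at -0.32, on 2 UMIs, Qk at -0.42 and Nrxn3 at -0.57, all within 1.5-fold, while the other 5 stayed past it. Of these 5, Rest, Rbm38, Mbnl2 and Hnrnph2 rested on only 4, 8, 11 and 13 UMIs in Nos1+ cells. Snap25, at -0.60, was just past 1.5-fold. A further 3 named genes then passed it, Ptbp3 (0.80), Khdrbs3 (-0.64) and Msi1 (-0.61). At P5, 0 of 13 SR genes passed 1.5-fold in either direction, and 1 of 20 hnRNP genes did, Hnrnph3 (0.62). Of the relatives, Khdrbs3 was lower in Nos1+ cells at P1 (-0.63) and at P5, where it was 96.3 against 228 CPM (-1.23, -1.47 to -1.03), the opposite direction from Khdrbs2. Celf2 was lower at P5 (-0.77), also opposite to Celf4. Mbnl2 was lower at P5 (-0.90). Of the transcripts with neuronal exons, Snap25 (-0.67 and -1.67) and Nrxn3 (-0.67 and -0.63) were lower at P1 and P5, and Dab1 at P5 (-2.42).

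The genes whose levels ran most like those of a member were found by Pearson correlation of log2 CPM over 21 profiles (7 groups of cells in 3 libraries) among 7328 genes. Profiles of a library share its depth and many share a stage, so the values are descriptions. For 30 such genes, 3 per member, 7 stayed among the 3 nearest when the excitatory groups of 22 to 26 cells were left out. Among them were Mettl9 for Rbfox2 (r = 0.98 in both), Max for Nova2 (0.85 and 0.93), Btg1 (0.94 and 0.96) and Arf1 (0.93 and 0.95) for Ptbp2, Scrt2 for Srrm4 (0.91 in both) and Dync1i2 for Elavl4 (0.93 in both). For Rbfox1, Rbfox3, Nova1 and Khdrbs2 no gene stayed.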

How the data were processed

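Counts of UMIs per gene and cell were deposited by the authors as whole numbers without normalization, from GFP+ cells of 1 library per stage. The matrix headers name Cell Ranger 3.1.0 (E16.5 and P5) and 3.0.2 (P1). The libraries hold 25638779, 15654107 and 13429055 UMIs.

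Cells with over 700 genes and under 10% mitochondrial UMIs were kept. No doublet caller was run. UMIs were summed per kind of cell and scaled to its total (CPM), and log2 ratios were taken after adding 1 CPM, among genes with a mean of at least 10 CPM. With 1 library per stage no test was made. Intervals (95%) are exact Poisson, Clopper-Pearson or, for ratios, conditional, and cover counting error only. A count of 0 was bounded by 3 counts. A gene counted as different past 1.5-fold. Cells were thinned with a fixed seed. Gating on single UMIs can favour deeper cells. In order of age, median depth was 7863, 3704.5 and 3073 UMIs in Nos1+ cells. In Lhx6+ Nos1- cells it was 5808, 3811 and 4752.5 UMIs.

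All 10 members entered every comparison, with those within 1.5-fold given by their range where not named, beside up to 4 genes of each list by absolute log2 ratio and genes among the 3 most like each member, of which 1 is not reported here. Members and lists were chosen with earlier results of these data known. In total, 14 alternatives were planned, and the gates without excitatory markers or with Lhx6, the likeness without excitatory groups, the listed genes at E16.5 without those markers and the subtype ratios were added after seeing the data. Stage ratios of Nos1+ cells against E16.5, where 14 of 67 cells held excitatory markers, are not described. Coordinates follow GENCODE release M21. Python 3.11.15, numpy 2.4.6, scipy 1.17.1, pandas 2.3.3 and matplotlib 3.10.9 were used, and steps were tested on simulated data.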

Additional observations from a re-analysis of the deposited data

Results flagged for a closer look

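Khdrbs2 was the 1 member that lay past 1.5-fold on opposite sides at different stages once the Nos1+ group was narrowed. Without Nos1+ cells that held excitatory markers, its log2 ratio of Nos1+ over Lhx6+ Nos1- cells was -0.996, 1.69 and 1.88 in order of age. With only Nos1+ cells that also held a Lhx6 UMI, it was -0.96, 1.61 and 1.75. The E16.5 levels rest on 16 Khdrbs2 UMIs in either case. With 1 library per stage the difference between stages was not tested.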

How the results depend on the processing

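The 6 counts of members past 1.5-fold were recomputed under 14 planned and 2 added alternatives. Of 87 recomputed counts, 74 stayed within 1.5 times and 13 did not, and of 870 member ratios 766 stayed inside the counting interval. No ratio of a member past 1.5-fold in the main values changed sign. At E16.5 the count of 1 between Nos1+ and Lhx6+ Nos1- cells became 2 with stricter limits on genes and mitochondrial UMIs, with no filter on cells, without the 5% of cells with most UMIs, with 2 UMIs needed for Nos1 or for Lhx6, with a total free of mitochondrial, ribosomal and haemoglobin genes, with thinned cells and with 0.1 CPM added. It became 4 without excitatory markers and 4 with Lhx6 required. At P1 the count of 3 became 5 under the stricter cell filter, and at P5 it became 5 with the mean of per-cell CPM and 5 with thinned cells. The stricter gates hold fewer cells, while the reduced total and the 0.1 CPM added use the same cells. The cause was not tested. Srrm4 fell inside 1.5-fold at P1 when Lhx6 needed 2 UMIs (-0.58) but reached -1.62 under the stricter cell filter, and Celf4 at P1 with the reduced total (0.57). Khdrbs2 kept a log2 ratio of 1.499 to 1.92 at P1 and 1.66 to 2.002 at P5. Both kinds of cells were compared within each library, and the 3 stages are not replicates of each other, so no test was made over them. The 67 Nos1+ cells at E16.5 limit all values there.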
